A study of Mus musculus with 12 samples.

Results

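Foxp1 knockdown in 3T3-L1 adipocytes was compared with a scrambled hairpin over all expressed genes. The comparison used 6 of the 12 RNA libraries of the study, 3 per group, chosen by their labels, and described the 11245 of 28948 listed genes that reached at least 1 RPKM in 3 or more of the 12 libraries. RPKM, the reads of a gene scaled to its exon length and to the library's assigned reads, is a length-corrected measure of RNA level. 3T3-L1 is an established fibroblast-like line from Swiss mouse embryos that turns into fat cells in culture. All 4 groups of the study carried an expression construct: a short hairpin RNA (shRNA) against Foxp1 (the knockdown), a scrambled shRNA (its control), a construct that overexpresses Foxp1, or an empty vector (the control of the overexpression). The differentiation cocktail, given to all groups, held insulin (5 µg/ml), the glucocorticoid dexamethasone (1 µM), the PPARG agonist troglitazone (10 µM) and the phosphodiesterase inhibitor isobutylmethylxanthine (0.5 mM). Cells were kept in 5 µg/ml insulin alone from day 4 and returned to growth medium at day 6. The number of hairpins, how they were delivered, whether before or after differentiation, the day of harvest and what separates one replicate from another (dish, transduction or library) are not given in the sources used here, so p-values measure the spread between these libraries, which may be technical.

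Foxp1 is a transcription factor of the forkhead family. Its group of forkhead proteins is known mainly for repressing transcription, and it binds the same core sequence as the FoxO factors, which insulin signalling keeps out of the nucleus. Fat cells of this line store triglyceride in a few large droplets, secrete adipokines such as adiponectin, and owe their state to the nuclear receptor Pparg and the C/EBP factors. Dexamethasone in the differentiation mixture acts through the glucocorticoid receptor and troglitazone through Pparg. The title of the series names aerobic glycolysis as the process under study.

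Between 37503085 and 38234421 assigned reads were recovered per library in the 6 libraries, and depth hardly differed. Replicates correlated at 0.998 across all listed genes on log2(RPKM + 1) in both groups. Transcripts of the mitochondrial genome took 5.37% ± 0.497 (SD, n = 3) of reads in the scrambled libraries and 6.34% ± 0.433 in the knockdown libraries. All 20 listed markers of mature fat cells passed the filter on level, and their summed level was 8791 to 8953 RPKM with the scrambled hairpin and 11115 to 11580.5 RPKM in the knockdown, so that markers of the labelled cell type were high in both. By gene, as given below, 11 of the 20 rose and 5 fell. The abundant fat cell gene Cidec alone went from 2294 to 3961 RPKM as group means. Of markers of other cells, 2 of 11 for macrophages, 0 of 8 for endothelium, 3 of 11 for skeletal muscle and 4 of 11 for bone and cartilage passed the filter. The summed level of the macrophage markers was 5.49 to 7.59 RPKM in the scrambled and 5.27 to 5.94 RPKM in the knockdown libraries, with 3 of the 11 at 0 in all 6. Preadipocyte markers did not separate the groups as a set, with sums of 315 to 333 and 318 to 354 RPKM. In these bulk samples, fewer cells of a type and less RNA per cell cannot be told apart.

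The targeted gene was lower in all 3 knockdown libraries. Foxp1 stood at 2.24, 2.20 and 2.11 RPKM with the scrambled hairpin and at 1.11, 1.14 and 1.08 RPKM with the hairpin against it (log2 change -0.59 ± 0.058 SE, adjusted p = 7.4e-06, limma with Benjamini-Hochberg adjustment over all tested genes, as for every adjusted p here). The groups did not overlap, and the remaining level was 0.508 of the control. On this log2(RPKM + 1) scale the change of a low gene such as Foxp1 is understated, and the ratio of mean RPKM shows its size better. Foxp4, the other Foxp gene tested, was at 16.002, 16.2 and 16.3 RPKM and 15.7, 15.4 and 15.9 RPKM and did not pass the threshold (adjusted p = 0.5). Foxp4 RNA was thus several times more abundant than Foxp1 RNA in both groups, per length of exon.

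All 4 FoxO genes fell together with Foxp1. These factors, inhibited by insulin signalling, drive genes of fasting metabolism and stress resistance. Foxo6 went from 4.52, 4.48 and 3.89 RPKM to 1.18, 1.11 and 1.27 RPKM (log2 change -1.27 ± 0.0665 SE, adjusted p = 6.9e-08), a larger relative loss than that of Foxp1. Foxo1, the most abundant FoxO gene with the scrambled hairpin, went from 18.3, 18.1 and 17.9 RPKM to 10.8, 11.5 and 10.5 RPKM (log2 change -0.68 ± 0.0397 SE, adjusted p = 1.7e-07). Neither gene showed any overlap between the groups, as held for 59.6% of all tested genes. Foxo4 fell from 14.5 ± 0.910 to 10.3 ± 0.713 RPKM (SD, n = 3, as for all values with ±) and Foxo3 from 10.02 ± 0.456 to 8.09 ± 0.536 RPKM, with adjusted p of 2.5e-04 and 6.2e-04. Of the Foxk genes, whose products are linked to aerobic glycolysis, Foxk2 fell from 18.4 ± 0.509 to 16.1 ± 0.461 RPKM (adjusted p = 0.0026), while Foxk1, at 10.1, 11.2 and 9.76 RPKM and 8.27, 10.2 and 8.86 RPKM, overlapped between the groups (adjusted p = 0.063, or 0.007 without knockdown replicate 2, 0.049 without scrambled replicate 3, 0.015 with the replicate number as a block and 0.037 with voom on recovered reads). Foxp2 and Foxp3 did not pass the filter on level.

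**Figure D1:**
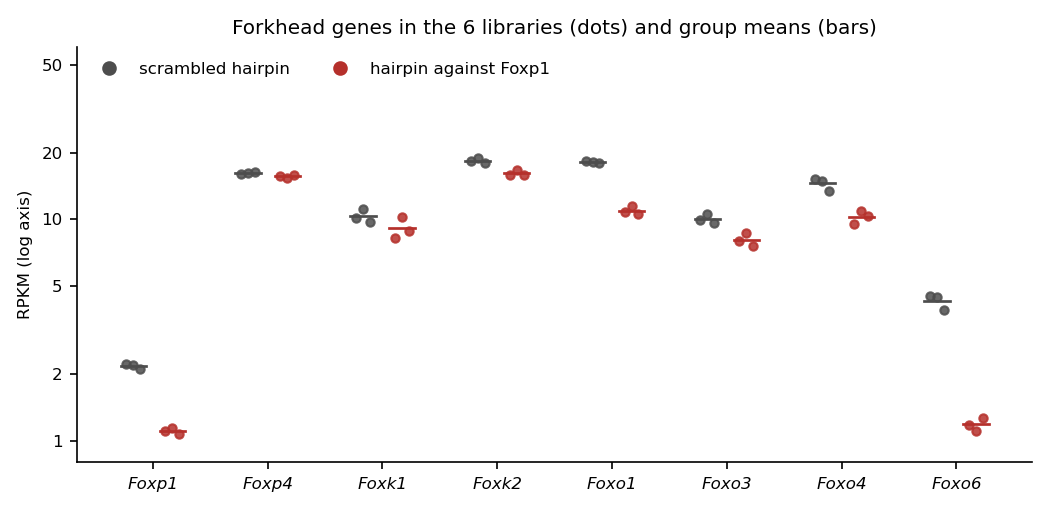
RPKM of the 8 tested forkhead genes on a log axis, with 1 dot per library and a bar at each group mean, in grey for the scrambled hairpin and in red for the hairpin against Foxp1 (3 libraries each). Foxp1 and Foxo6 show the widest gaps, Foxo1 and Foxo4 clear ones, and Foxk1 overlaps.

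Over the whole transcriptome, 2100 genes rose and 3487 fell, 49.7% of the tested genes (18.7% up and 31.0% down). Most changes were small, with a median size of 0.26 on the log2 scale among the genes that passed, and 104 genes (0.925%) at least doubled while 89 (0.791%) dropped to at most 0.5 of the control mean. The 2 groups did not overlap in 6703 genes (59.6%). Most genes named below were picked by adjusted p or by this separation, so their lack of overlap adds no support. The excess of falls over rises depended on how the libraries were scaled: with median-ratio scaling 2783 genes rose and 2791 fell, and with quantile normalization 2650 rose and 2925 fell. It widened after rescaling every library to an equal sum (TPM), where 1611 rose and 3724 fell. The median log2 change of all tested genes was -0.04, and gene groups are read below against that median and against the shares of 18.7% and 31.0%.

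**Figure D2:**
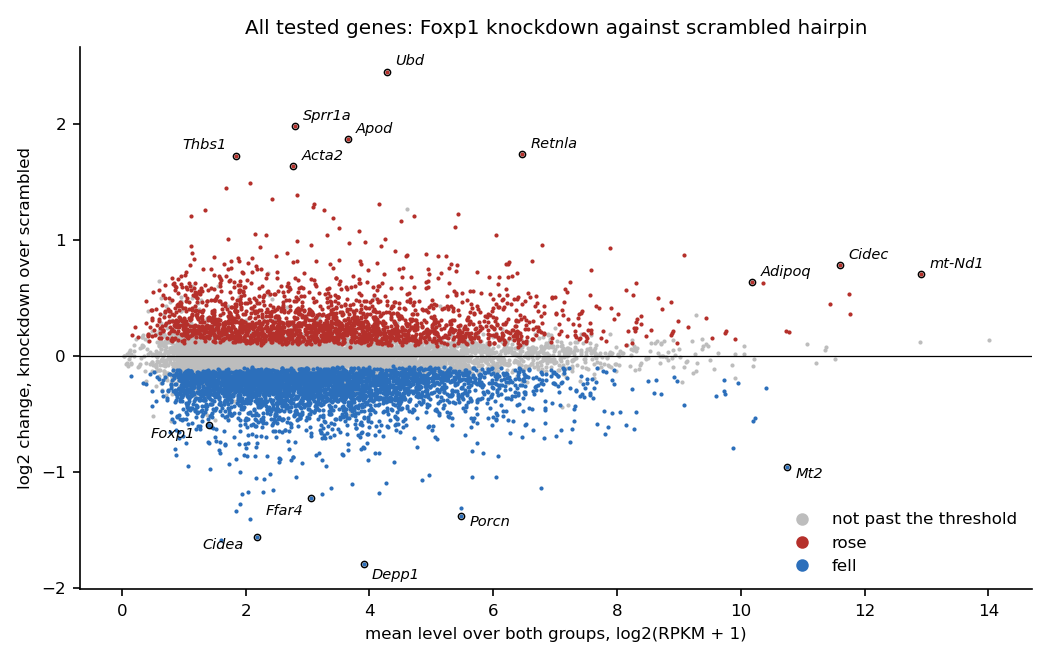
Log2 change in knockdown over scrambled hairpin for the 11245 tested genes against their mean level as log2(RPKM + 1), in red where they rose, blue where they fell and grey where the adjusted p did not pass 0.05. Ubd and Depp1 lie at the ends, and abundant fat cell genes such as Cidec and Adipoq lie above 0.

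Among genes with a mean of at least 5 RPKM, the largest rise on the log2(RPKM + 1) scale was that of Ubd, which encodes FAT10, a ubiquitin-like protein induced in inflammation. Ubd stood at 5.40, 4.38 and 5.25 RPKM with the scrambled hairpin and at 32.9, 29.9 and 32.7 RPKM in the knockdown, 6.35 times as much (log2 change 2.45 ± 0.0683 SE, adjusted p = 1.6e-09). The gene for the small proline-rich protein Sprr1a rose 5.60-fold, from 1.80 ± 0.231 to 10.1 ± 1.19 RPKM. Apod, a lipocalin that carries small lipids, rose from 4.37 ± 0.588 to 18.7 ± 2.16 RPKM. Retnla, a secreted resistin-like protein, was the most abundant of the strong risers and went from 39.3, 36.3 and 44.3 RPKM to 133, 125 and 149 RPKM (log2 change 1.74 ± 0.0757 SE, adjusted p = 2.6e-08). Genes were taken for these largest rises, and for the largest falls, only where the groups did not overlap. Acta2, smooth muscle actin, was even among the scrambled libraries (2.17, 2.14 and 2.13 RPKM) and uneven in the knockdown (14.3, 5.04 and 9.15 RPKM), so that its mean ratio of 4.42 carries a wide error (log2 change 1.64 ± 0.24 SE, adjusted p = 1.3e-04). Also among the 15 largest rises at this level were the interferon-induced Ifi27l2a (9.21 to 24.3 RPKM), the acute-phase gene Orm2 (4.69 to 12.6), the calcium-binding S100a4 (24.8 to 59.8), the tubulin gene Tuba1a (14.8 to 35.7), the cytochrome Cyp2e1 (13.2 to 30.6) and the growth factor gene Ptn (25.3 to 56.2), given as group means.

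Among the same genes of at least 5 RPKM, the largest fall was that of Depp1, known as a target of FoxO factors, from 20.6, 23.2 and 23.1 RPKM to 5.28, 6.69 and 5.23 RPKM (log2 change -1.80 ± 0.0822 SE, adjusted p = 3.3e-08). Depp1 also fell in overexpression, as given below. Porcn, the acyltransferase that attaches the lipid of Wnt proteins, went from 62.2, 67.2 and 61.2 RPKM to 23.7, 26.04 and 21.8 RPKM (log2 change -1.38 ± 0.0747 SE, adjusted p = 9.0e-08). Cyb561, a transmembrane cytochrome that passes electrons from ascorbate, went from 63.2, 65.3 and 59.6 RPKM to 23.7, 25.2 and 25.03 RPKM (log2 change -1.31 ± 0.0458 SE, adjusted p = 7.8e-09). Also among the 15 largest falls at this level were Far2, which makes fatty alcohols (12.02 to 4.71 RPKM as group means), the ubiquitin ligase adaptor Dcaf4 (23.7 to 9.90), the inositol kinase Itpka (13.2 to 5.49), Selenbp1 (17.04 to 7.41), the kynurenine aminotransferase Kyat1 (38.1 to 17.6), the matrix protein gene Fbln2 (88.1 to 42.2), the heparan sulfate proteoglycan gene Sdc3 (8.52 to 3.62), Gchfr, which regulates the synthesis of tetrahydrobiopterin (66.9 to 32.1), and the kinase gene Cdk18 (40.7 to 19.5).

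Among genes of 1 to 5 RPKM, where counting error weighs more, the chemokine gene Ccl2 rose from 0.161, 0.460 and 0.278 RPKM to 2.76, 1.44 and 1.89 RPKM, the matrix gene Thbs1 from 0.647, 0.758 and 0.604 RPKM to 4.72, 4.57 and 4.30 RPKM, and the sphingolipid enzyme gene Sptlc3 from 1.13, 1.27 and 1.22 RPKM to 5.69, 4.84 and 5.13 RPKM. In the other direction, Ccl24, a chemokine gene, fell from 4.09, 4.36 and 3.996 RPKM to 0.906, 1.10 and 1.13 RPKM, and Pnpla3, a lipid droplet hydrolase gene, from 4.72, 4.54 and 3.79 RPKM to 1.03, 1.54 and 1.49 RPKM. These genes were chosen from those without overlap between the groups.

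Genes of the fat cell itself moved in both directions. Of the mature fat cell markers, 11 of 20 tested members rose and 5 fell (median log2 change 0.15). Cidec, whose protein fuses lipid droplets into the single droplet of white fat, was among the 10 most abundant transcripts and went from 2246, 2325 and 2312 RPKM to 3904, 3830.1 and 4148 RPKM (log2 change 0.79 ± 0.0454 SE, adjusted p = 1.4e-07). Its relative Cidea, found in brown and beige fat, went the other way, from 5.73, 5.30 and 6.27 RPKM to 1.22, 1.21 and 1.48 RPKM (log2 change -1.56 ± 0.10 SE, adjusted p = 4.4e-07). The 2 related genes thus changed in opposite directions, with no overlap in either, as in 59.6% of all tested genes. Plin2, a droplet coat protein, went from 138, 144 and 144 RPKM to 245, 235 and 234 RPKM, and Fitm2, which partitions fat into droplets, rose from 86.7 ± 0.990 to 119.5 ± 0.710 RPKM. Plin3 fell from 27.3 ± 1.38 to 19.8 ± 0.440 RPKM, Bscl2 (seipin) from 9.07 ± 0.217 to 7.26 ± 0.155 RPKM and the lipase inhibitor G0s2 from 331 ± 5.57 to 274 ± 21.3 RPKM. Plin4, at 126 ± 5.30 and 124 ± 8.11 RPKM, did not pass (adjusted p = 0.76).

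Secreted fat cell products were split as well, with 6 of 17 adipokine genes up and 7 down. Cfd, the complement protease adipsin, rose from 380.3, 369 and 392 RPKM to 646, 671 and 784 RPKM (adjusted p = 1.0e-05), Ccdc80 from 28.2 ± 0.648 to 48.3 ± 1.37 RPKM and Angptl4, an inhibitor of lipoprotein lipase, from 54.2 ± 2.73 to 94.6 ± 4.69 RPKM. Lcn2, a lipocalin of inflammation, fell from 182, 181 and 197 RPKM to 119.9, 121 and 121 RPKM (log2 change -0.63 ± 0.0497 SE, adjusted p = 1.5e-06), and resistin (Retn) fell from 268 ± 10.04 to 228 ± 17.4 RPKM. Retn and Retnla, which encode related proteins, therefore changed in opposite directions. Igf1 and Nrg4 did not pass (adjusted p = 0.37 and 1).

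Transcription factors of fat cell differentiation fell more often than they rose, with 5 of 26 tested up and 17 down (median log2 change -0.23). Stat5a, which carries growth hormone signals, fell from 27.4 ± 1.15 to 18.5 ± 0.810 RPKM and its paralog Stat5b from 15.1 ± 1.26 to 10.3 ± 0.891 RPKM. The glucocorticoid-responsive factors Klf15 and Klf9 fell from 22.8 ± 0.694 to 14.6 ± 0.898 RPKM and from 62.6 ± 1.39 to 48.4 ± 1.48 RPKM. Rxra, the partner of Pparg, fell from 93.7 ± 4.22 to 74.2 ± 2.83 RPKM, and Cebpa from 138 ± 3.08 to 116 ± 4.15 RPKM. The largest p of these 6 was that of Cebpa (adjusted p = 6.5e-04). Inhibitors of helix-loop-helix factors rose, namely Id1 (36.8 to 51.2 RPKM), Id2 (1.16 to 2.01 RPKM) and Id3 (10.7 to 14.2 RPKM), together with Klf5 and the liver X receptor gene Nr1h3 (38.99 to 54.9 RPKM). Srebf1, the master factor of fatty acid synthesis, was at 21.7, 21.9 and 20.7 RPKM and 19.3, 21.6 and 21.6 RPKM (adjusted p = 0.69).

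Nuclear receptors other than Pparg followed the same pattern of counts, 3 up and 13 down of 20. The retinoic acid receptor gene Rarg fell from 17.8 ± 0.515 to 12.3 ± 0.453 RPKM and the retinoid X receptor gene Rxrb from 23.02 ± 0.807 to 17.4 ± 0.447 RPKM. The vitamin D receptor gene Vdr rose from 6.05 ± 0.528 to 8.98 ± 0.714 RPKM, one of the 3 receptors that rose.

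In the synthesis of fat, genes of glycerol and fatty acid handling rose more often than they fell (13 up and 4 down of 24, with 2 down after median-ratio scaling). The glycerol channel gene Aqp7 rose from 3.08, 3.28 and 3.47 RPKM to 5.83, 5.84 and 6.55 RPKM (adjusted p = 1.0e-06), the glycerol-phosphate dehydrogenase gene Gpd1 from 334 ± 11.4 to 472 ± 5.36 RPKM and the fatty acid receptor gene Cd36 from 393 ± 14.3 to 543 ± 13.6 RPKM. Against them, Dgat2, one of the enzymes that complete triglyceride, fell from 376, 382 and 366 RPKM to 228, 252 and 245 RPKM (log2 change -0.63 ± 0.054 SE, adjusted p = 2.9e-06). Dgat1, which catalyses the same step, was at 131, 132 and 129 RPKM and 127, 126 and 125 RPKM (adjusted p = 0.23).

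Genes of fatty acid synthesis and desaturation went both ways, 10 up and 7 down of 24. Scd3, a stearoyl-CoA desaturase gene, rose from 8.09, 7.86 and 8.52 RPKM to 17.4, 18.8 and 18.6 RPKM (log2 change 1.08 ± 0.0479 SE, adjusted p = 3.0e-08), and Scd1, far more abundant per length of exon, rose from 3049.5 ± 129 to 3914 ± 208 RPKM (log2 change 0.36, but -0.10 with quantile normalization). Its call was also lost with no filter on low values (adjusted p = 0.0501). Reads of these near-identical paralogs may be exchanged between them by the authors' counting. Hsd17b12, which elongates long fatty acids, rose from 117 ± 2.75 to 173 ± 5.30 RPKM. Fads1 and Elovl5, which desaturate and elongate polyunsaturated fatty acids, fell from 77.1 ± 1.95 to 53.8 ± 1.53 RPKM and from 59.6 ± 1.01 to 40.2 ± 1.65 RPKM (adjusted p = 4.9e-07 and 9.0e-06). Acly, which makes cytosolic acetyl-CoA, fell from 72.3 ± 2.89 to 58.9 ± 3.19 RPKM, whereas fatty acid synthase (Fasn), at 209, 223 and 188 RPKM and 166, 200.4 and 189 RPKM, did not pass (adjusted p = 0.22).

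Several receptors that restrain lipolysis fell. Ffar4, the receptor for long-chain fatty acids also known as GPR120, went from 10.7, 10.04 and 11.3 RPKM to 4.02, 4.22 and 3.74 RPKM (log2 change -1.23 ± 0.11 SE, adjusted p = 3.0e-06). Hcar2 and Ffar2, receptors for hydroxy acids and short-chain fatty acids, fell from 13.7 ± 0.947 to 10.5 ± 0.398 RPKM and from 10.4 ± 0.342 to 8.85 ± 0.495 RPKM. Adora1, the adenosine receptor of fat cells, went from 1.34, 1.54 and 1.20 RPKM to 0.572, 0.636 and 0.643 RPKM. It reached 1 RPKM in the scrambled libraries only and passed the filter through them, so its fall was fixed by the filter and adds no support. Of the lipases, Mgll rose from 5.24 ± 0.129 to 7.18 ± 0.439 RPKM. Lipe rose from 201 ± 6.04 to 225 ± 9.65 RPKM and Pnpla2 from 908 ± 22.01 to 1004 ± 10.8 RPKM, calls that were lost without scrambled replicate 3 (adjusted p = 0.054 and 0.052) and, for Lipe, without knockdown replicate 3 (0.054). The call of Lipe was also lost after rescaling to TPM, an equal sum in every library (adjusted p = 0.12) and that of Pnpla2 with no filter on low values (adjusted p = 0.092). Over the whole list 3 of 18 rose (1 without scrambled replicate 3) and 7 fell. The list median log2 change was -0.028, near the -0.042 of all tested genes.

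Cholesterol synthesis showed more rises than most lists: 15 of 23 tested members rose and 3 fell, with a median log2 change of 0.23. Dhcr7, an enzyme of the last steps, went from 24.8, 26.04 and 26.1 RPKM to 42.2, 40.4 and 41.5 RPKM (log2 change 0.67 ± 0.0519 SE, adjusted p = 1.3e-06). Idi1, an isomerase early in the pathway, went from 39.5, 38.6 and 42.5 RPKM to 60.95, 60.8 and 57.2 RPKM, and Hsd17b7 from 11.2, 11.3 and 11.2 RPKM to 18.2, 18.8 and 17.1 RPKM. None of these 3, picked for a small adjusted p, overlapped between the groups, as held for 59.6% of all tested genes. Lss (25.7 to 34.9 RPKM), Fdft1 (51.9 to 65.7 RPKM), Fdps (8.62 to 11.5 RPKM) and Sqle (41.6 to 48.98 RPKM) rose by less. The exceptions were 2 enzymes of sterol demethylation, Msmo1 (from 69.7 ± 1.19 to 55.3 ± 1.56 RPKM) and Cyp51 (from 147 ± 3.88 to 125 ± 3.47 RPKM), and Insig1, the sterol-sensing brake of the pathway (from 198 ± 6.45 to 155 ± 3.95 RPKM), which fell. The factor gene Srebf2, at 29.3, 31.4 and 28.1 RPKM and 27.9, 29.7 and 29.2 RPKM, did not pass (adjusted p = 0.59).

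Sterol regulatory factors commonly act beside the factor NF-Y, whose core site is CCAAT. In RefSeq promoters (250 bases before to 50 after the transcript start, build GRCm38.p6, which the deposited mm10 identifiers share), CCAAT on either strand was found for 16 of 18 tested cholesterol synthesis genes with a promoter in the table and for 41.1% of all 27025 genes. It was about as frequent among clock genes, which mostly fell (13 of 15), and was found for 9 of 19 hypoxia targets. The sterol element TCACNCCAC was found for 1 of 18 cholesterol synthesis genes, Hmgcs1, and for 1.44% of all genes. The 250 bases before the transcript start are shown for Idi1 (chr13:8885356-8885605, plus strand) and Hsd17b7 (chr1:169969206-169969455, minus strand), which rose, with each CCAAT or its reverse complement ATTGG in capitals. In Hsd17b7 the capitals also mark ACGTG and its overlapping reverse complement.
Idi1: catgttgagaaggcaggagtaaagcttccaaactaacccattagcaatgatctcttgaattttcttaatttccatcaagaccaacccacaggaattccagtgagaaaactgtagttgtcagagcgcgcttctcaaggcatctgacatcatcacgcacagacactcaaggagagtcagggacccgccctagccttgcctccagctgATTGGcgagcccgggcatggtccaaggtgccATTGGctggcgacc
Hsd17b7: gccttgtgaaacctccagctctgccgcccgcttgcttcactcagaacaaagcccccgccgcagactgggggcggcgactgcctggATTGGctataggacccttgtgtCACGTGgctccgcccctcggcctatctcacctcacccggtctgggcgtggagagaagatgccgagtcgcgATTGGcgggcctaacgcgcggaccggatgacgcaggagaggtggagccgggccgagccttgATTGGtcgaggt
Idi1 holds 2 CCAAT matches and Hsd17b7 holds 3 in this stretch, and neither holds the sterol element. The nearest GENCODE start lies 105 bases from the RefSeq start for Idi1 and 36 bases for Hsd17b7, inside the printed stretch in both. Both marked Idi1 matches lie after that GENCODE start. Such matches describe the letters of a promoter only.

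Cholesterol uptake and export showed counts nearer to those of all tested genes, with 4 genes up and 8 down of 18. The lipoprotein receptor genes Scarb1 and Vldlr fell from 60.3 ± 0.958 to 41.3 ± 0.851 RPKM and from 24.8 ± 0.553 to 16.3 ± 1.12 RPKM. Npc1 and Npc2, which carry cholesterol out of lysosomes, fell from 9.002 ± 0.429 to 6.44 ± 0.341 RPKM and from 178 ± 5.25 to 145 ± 4.97 RPKM. Stard4, a cytosolic sterol carrier, rose from 7.57 ± 0.212 to 10.95 ± 0.670 RPKM, and Apoe from 5.43 ± 0.392 to 9.19 ± 1.14 RPKM.

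**Figure D3:**
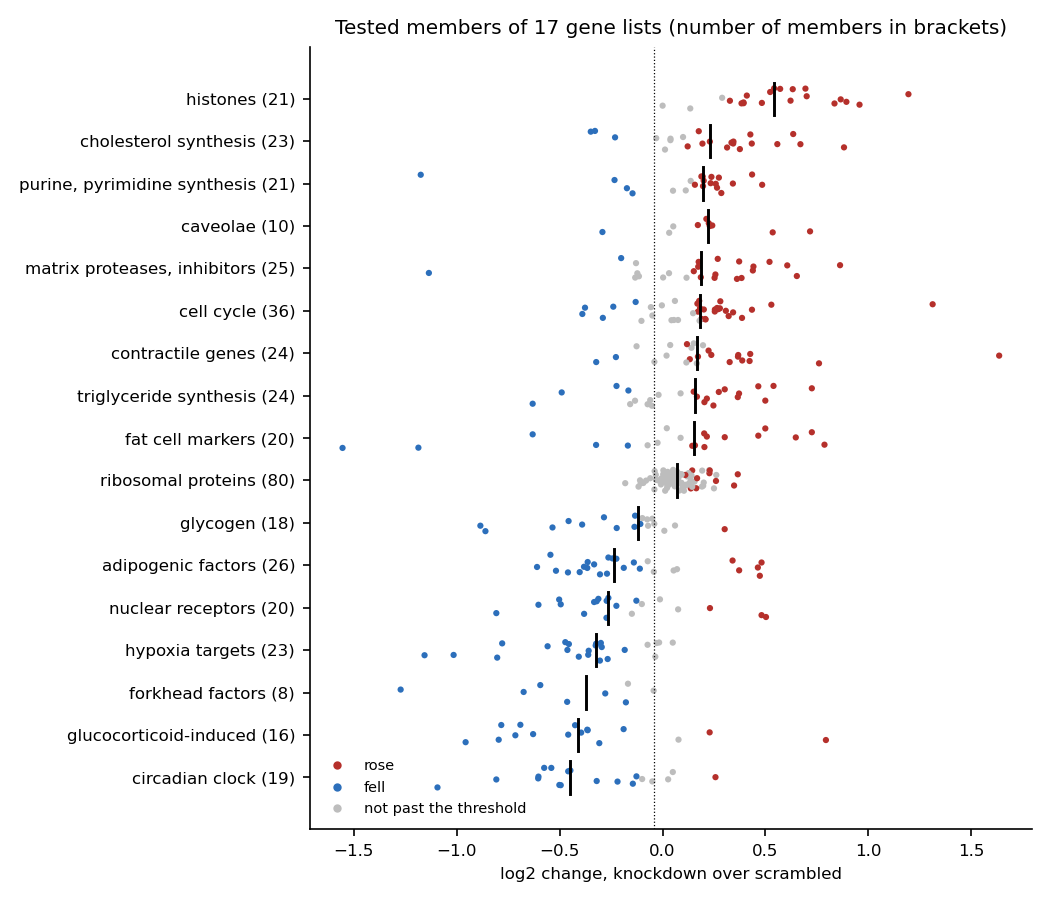
Log2 change in knockdown over scrambled hairpin of each tested member of 17 gene lists, with 1 dot per gene (red rose, blue fell, grey did not pass), a black bar at the list median and a dotted line at the median of all tested genes (-0.04). Histones and cholesterol synthesis lie to the right, and hypoxia targets, glucocorticoid-induced genes and clock genes to the left.

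Targets of the hypoxia-inducible factors outside glycolysis were the list with the largest share of falls among those with at least 20 tested members. Of its genes, 18 of 23 fell and 0 rose (median log2 change -0.33). The smaller list of glucocorticoid-induced genes had a larger share, 13 of 16. Glycolysis genes were listed apart and are given below. Adm, the peptide hormone adrenomedullin, went from 5.86, 7.11 and 6.54 RPKM to 2.24, 2.40 and 2.43 RPKM (log2 change -1.16 ± 0.0883 SE, adjusted p = 1.2e-06), and the stress-response gene Ndrg1 from 5.99, 6.57 and 5.50 RPKM to 2.36, 2.55 and 2.49 RPKM (log2 change -1.02 ± 0.0525 SE, adjusted p = 6.9e-08). The carbonic anhydrase genes Car9 and Car12, which regulate pH outside the cell, went from 4.56, 4.73 and 4.76 RPKM to 2.37, 2.30 and 2.26 RPKM and from 1.16, 1.39 and 1.38 RPKM to 0.312, 0.328 and 0.325 RPKM. Adm, Ndrg1 and Car9 were lower in each knockdown library than in any scrambled library. Such separation, in either direction, held for 59.6% of all tested genes. Car12 reached 1 RPKM in the scrambled libraries only and passed the filter through them. Its fall and its lack of overlap were therefore fixed by the filter and add no support to the pattern of the list. The prolyl hydroxylase genes Egln1 and Egln3, which mark the hypoxia-inducible factors for degradation, fell from 113 ± 0.936 to 82.5 ± 0.790 RPKM and from 140.0 ± 0.796 to 105 ± 3.83 RPKM. Ddit4, an inhibitor of mTORC1, fell from 188 ± 9.49 to 128 ± 7.94 RPKM, Mxi1, a Myc antagonist, from 20.8 ± 0.362 to 14.7 ± 1.03 RPKM and Vegfa from 83.9 ± 3.59 to 65.2 ± 5.87 RPKM. The 5 members that did not pass include Hilpda, a droplet protein gene, at 27.96, 27.7 and 27.2 RPKM and 27.7, 31.1 and 27.2 RPKM (adjusted p = 0.62).

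The core of the hypoxia response element, ACGTG, was present on either strand in the promoters of 14 of 19 of these genes with a RefSeq promoter, and in 21.8% of all genes. The same 5 letters are part of CACGTG, the E-box bound by clock factors, and occurred in 9 of 15 clock genes, 7 of 13 glucocorticoid-induced genes, 6 of 12 of the largest falls, 5 of 18 cholesterol synthesis genes and 1 of 10 of the largest rises. The forkhead core TGTTTAC was present in 1 of 19 hypoxia targets, 0 of 12 of the largest falls and 0 of 10 of the largest rises, against 4.05% of all genes. These 2 promoters, of Car9 (chr4:43506776-43507025, plus strand) and the clock output gene Dbp (chr7:45704997-45705246, plus strand), show the match in capitals, 250 bases before the start, both from genes that fell.
Car9: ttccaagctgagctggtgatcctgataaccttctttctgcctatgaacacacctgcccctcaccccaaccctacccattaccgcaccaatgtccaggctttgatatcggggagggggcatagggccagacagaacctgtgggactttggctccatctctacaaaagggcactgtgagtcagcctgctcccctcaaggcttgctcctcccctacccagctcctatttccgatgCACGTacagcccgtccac
Dbp: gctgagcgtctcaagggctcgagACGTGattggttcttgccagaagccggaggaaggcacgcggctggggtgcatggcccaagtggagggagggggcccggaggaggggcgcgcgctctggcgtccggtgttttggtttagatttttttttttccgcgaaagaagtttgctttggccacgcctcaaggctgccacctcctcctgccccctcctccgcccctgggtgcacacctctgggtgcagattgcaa
Both stretches hold 1 match, in Car9 as the reverse complement close to the transcript start and in Dbp near the far end.

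In glycogen metabolism more genes fell than rose (1 up and 10 down of 18). Ppp1r3c and Ppp1r3b, which bring protein phosphatase to glycogen, went from 89.1, 85.7 and 83.4 RPKM to 43.8, 50.9 and 46.3 RPKM and from 6.81, 6.83 and 6.20 RPKM to 3.003, 3.59 and 2.81 RPKM, with adjusted p of 2.9e-07 and 1.2e-06. Gyg, the protein primer of glycogen, fell from 72.8 ± 0.960 to 55.3 ± 0.256 RPKM and the phosphorylase gene Pygb from 58.2 ± 4.07 to 39.8 ± 2.37 RPKM, so genes of synthesis and of breakdown were both among the falls. Glycogen synthase (Gys1), at 143, 149 and 137 RPKM and 131, 141 and 136 RPKM, did not pass (adjusted p = 0.25). In the pentose phosphate pathway, Pgd rose from 45.2 ± 0.773 to 60.3 ± 2.01 RPKM and Prps1 from 21.2 ± 0.776 to 29.7 ± 1.75 RPKM, while Tkt fell from 143, 147 and 127 RPKM to 78.6, 88.01 and 87.5 RPKM (log2 change -0.70 ± 0.0868 SE, adjusted p = 4.0e-05) and H6pd fell from 47.5 ± 1.57 to 36.5 ± 2.33 RPKM. G6pdx, the first enzyme, did not pass (adjusted p = 0.13). For glycolysis, 2 of 16 tested genes rose and 6 fell, with 5 up and 5 down after median-ratio scaling, 0 up after rescaling to TPM, 1 up with no filter on low values and 1 up without scrambled replicate 1, scrambled replicate 2, knockdown replicate 1 or knockdown replicate 3.

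Genes that glucocorticoids induce fell in most cases: 13 of 16 fell and 2 rose, with a median log2 change of -0.41. The metallothionein genes Mt2 and Mt1, whose proteins bind zinc, carried the most RNA among them. Mt2 went from 2224, 2229 and 2388 RPKM to 1159, 1184 and 1177 RPKM (log2 change -0.96 ± 0.0432 SE, adjusted p = 3.0e-08), and Mt1 from 1146, 1249 and 1185 RPKM to 704, 655 and 701 RPKM (log2 change -0.80 ± 0.0443 SE, adjusted p = 1.0e-07). Both were close to even within each group. Fkbp5, a chaperone of the glucocorticoid receptor and a standard marker of its activity, went from 160.3, 166 and 151 RPKM to 91.3, 103 and 101 RPKM (log2 change -0.69 ± 0.0614 SE, adjusted p = 3.8e-06), and Errfi1, an inhibitor of EGF receptor signalling, from 40.9, 42.5 and 40.3 RPKM to 23.6, 26.2 and 24.5 RPKM. Glutamine synthetase (Glul) fell from 622 ± 16.02 to 463 ± 6.29 RPKM. The exceptions were Angptl4 and Sgk1, which rose, the latter from 14.1 ± 0.474 to 16.7 ± 0.379 RPKM. Metallothioneins also respond to zinc and other metals, and members of this list are shared with the adipogenic factors (Klf9) and the clock (Per1).

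Clock genes fell in 14 of 19 cases, with 1 rise (median log2 change -0.45). The clock is a loop in which Clock and Arntl (BMAL1) activate the Per, Cry and Nr1d genes and output factors such as Dbp. Dbp went from 24.6, 26.7 and 24.1 RPKM to 11.01, 11.8 and 10.9 RPKM (log2 change -1.09 ± 0.0504 SE, adjusted p = 3.3e-08). Of its exon length 18.01% overlaps Sphk2 on the other strand, as does 18.3% of Fdft1 with Ctsb, 11.4% of Far2 with Ergic2 and 20.7% of Cebpb with Tmem189, and no strand setting of the counting is given in the sources used here. Per3, Nr1d1 and Bhlhe40 went from 4.33 ± 0.398 to 2.51 ± 0.202, from 36.6 ± 1.99 to 23.7 ± 1.39 and from 62.9 ± 2.07 to 42.03 ± 4.16 RPKM, and Cry2 fell from 14.1 ± 1.20 to 10.1 ± 0.611 RPKM. The activator Arntl was the member that rose, from 2.43 ± 0.0482 to 3.10 ± 0.168 RPKM (adjusted p = 0.001), and Clock did not pass (7.08, 7.14 and 6.94 RPKM and 6.46, 7.52 and 6.41 RPKM, adjusted p = 0.5). Clock time at harvest is not given in the sources used here, and its part in these values was not tested.

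Among genes of the cell cycle and DNA replication 21 of 36 rose and 5 fell (median log2 change 0.18). Cyclin D1 (Ccnd1) went from 3.79, 3.82 and 4.16 RPKM to 12.6, 9.64 and 11.6 RPKM (log2 change 1.31 ± 0.079 SE, adjusted p = 2.0e-07), and Ccnd2 rose from 60.1 ± 0.281 to 87.1 ± 2.48 RPKM. The replication helicase genes Mcm3 (2.74 to 4.05 RPKM), Mcm5 (3.71 to 4.84 RPKM) and Mcm6 (3.42 to 4.61 RPKM) rose at low levels. The inhibitor gene Cdkn1b fell from 11.6 ± 0.0609 to 8.60 ± 0.482 RPKM, but so did Cdk6 (5.14 to 3.73 RPKM) and E2f1 (9.76 to 7.80 RPKM), and the mitotic kinase gene Cdk1, at 4.88, 5.04 and 4.92 RPKM and 4.92, 4.13 and 4.59 RPKM, did not pass (adjusted p = 0.18). Nucleotide synthesis showed 14 rises and 4 falls among 21 genes. Gart rose from 10.9 ± 0.681 to 14.1 ± 0.484 RPKM and Shmt1 from 2.04 ± 0.0470 to 3.25 ± 0.0228 RPKM, while Adssl1, the muscle form of adenylosuccinate synthase, had the largest change of the list in the other direction, from 5.89, 6.03 and 5.20 RPKM to 1.99, 1.94 and 1.97 RPKM (log2 change -1.18 ± 0.0869 SE, adjusted p = 9.4e-07).

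Histone genes that are normally tied to DNA replication rose in 18 of 21 cases, with no fall and a median log2 change of 0.54, the highest of the lists with at least 10 tested members. Hist1h2bc went from 14.6, 15.1 and 18.7 RPKM to 30.6, 28.7 and 30.9 RPKM (log2 change 0.87 ± 0.0719 SE, adjusted p = 2.3e-06), Hist1h4h from 4.96, 4.90 and 6.46 RPKM to 15.4, 11.1 and 14.8 RPKM and the linker histone gene Hist1h1c, the most abundant of them, from 71.5, 77.3 and 79.6 RPKM to 119, 107 and 108 RPKM. No overlap between the groups was seen in these 3, as in 59.6% of all tested genes. Most of the others were below 5 RPKM. The 21 tested genes are those of 64 listed that passed the filter. Messages of such histones mostly end in a stem-loop in place of a poly(A) tail, near-identical copies share reads, and how the libraries were enriched is not given in the sources used here.

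Small nucleolar RNAs (snoRNAs), which guide chemical modification of ribosomal RNA and lie in introns of host genes, rose in 17 of 46 cases and fell in 0 (11 and 0 without knockdown replicate 3, 16 and 0 with voom on recovered reads and 8 and 0 with no filter on low values, median log2 change 0.47). Recovered reads over the 46 snoRNAs were 402, 397 and 421 in the scrambled libraries and 637, 639 and 714 in the knockdown libraries. Snord104 alone held 357 of the scrambled and 478 of the knockdown reads, and most of the others rest on few reads. Snord49a had 34 reads in the 3 scrambled and 89 in the 3 knockdown libraries, and Snord49b, in the same host, 6 and 30. Their host 2410006H16Rik fell over the same comparison (log2 change -0.42 ± 0.0819 SE, adjusted p = 0.0011). Of 31 tested hosts of the 46 snoRNAs, 5 rose and 6 fell, with a median log2 change of 0.03. Malat1, an RNA retained in the nucleus, rose from 57.8 ± 6.16 to 87.6 ± 15.2 RPKM (adjusted p = 0.0028), and Neat1, another, was at 10.2, 13.2 and 12.2 RPKM and 9.78, 13.2 and 12.2 RPKM (adjusted p = 0.91). The part of RNA fragment length or of nuclear RNA in these values was not tested.

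Among glycoproteins and small proteoglycans of the extracellular matrix 12 of 31 rose and 6 fell. Aspn, a proteoglycan that binds TGF-beta, went from 53.5, 48.96 and 55.6 RPKM to 96.2, 90.6 and 89.9 RPKM (log2 change 0.80 ± 0.0499 SE, adjusted p = 2.7e-07), and Mgp, an inhibitor of calcification, from 11.3, 10.9 and 11.99 RPKM to 24.9, 19.5 and 25.02 RPKM. Postn rose from 52.1 ± 0.870 to 73.6 ± 1.79 RPKM and Prelp from 30.8 ± 0.981 to 51.8 ± 1.55 RPKM. Fbln2 went from 88.5, 90.9 and 84.99 RPKM to 41.3, 43.3 and 42.05 RPKM (log2 change -1.04 ± 0.0433 SE, adjusted p = 2.6e-08) and fibronectin (Fn1) fell from 61.3 ± 3.08 to 43.2 ± 3.51 RPKM. Collagen chains were even, 5 up and 5 down of 21 (9 up and 4 down with median-ratio scaling), with Col6a2 (224 to 289 RPKM) and Col5a1 (79.3 to 59.1 RPKM) as the clearest in each direction.

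Matrix proteases and their inhibitors rose in 16 of 25 cases and fell in 2 (4 with quantile normalization and 4 with only the 6 libraries in the model). The protease genes Adamts1 (from 23.4 ± 1.11 to 43.4 ± 1.17 RPKM), Mmp11 (from 9.82 ± 0.174 to 15.5 ± 0.239 RPKM), Ctsk (from 5.66 ± 0.157 to 9.48 ± 0.690 RPKM) and Mmp14 (from 16.2 ± 0.451 to 21.5 ± 1.80 RPKM) rose, and so did the inhibitor gene Timp2 (from 30.4 ± 1.57 to 44.1 ± 3.57 RPKM). The cross-linking enzyme gene Lox was one of the falls, from 89.9 ± 3.12 to 78.1 ± 4.50 RPKM. In TGF-beta and BMP signalling the largest change was in Fstl1, a secreted follistatin-like protein, from 39.1, 42.2 and 45.5 RPKM to 92.8, 80.1 and 92.2 RPKM (log2 change 1.05 ± 0.0704 SE, adjusted p = 4.7e-07), while the TGF-beta-induced gene Tgfbi fell from 7.53 ± 0.483 to 4.85 ± 0.198 RPKM.

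Genes of the contractile cytoskeleton rose in 13 of 24 cases and fell in 2. Filamin A (Flna), which cross-links actin, went from 15.7, 17.4 and 15.5 RPKM to 28.6, 27.4 and 28.5 RPKM (log2 change 0.76 ± 0.0503 SE, adjusted p = 4.2e-07), and Mylk, myosin light chain kinase, rose from 3.93 ± 0.147 to 5.61 ± 0.185 RPKM. Tpm2 and desmin (Des) fell from 13.4 ± 0.320 to 10.6 ± 0.631 RPKM and from 9.83 ± 0.841 to 8.25 ± 0.517 RPKM. Caveolae, the membrane pits that are dense in fat cells, showed 7 rises and 1 fall among 10 genes. Cavin3 rose from 62.3 ± 4.87 to 103 ± 8.71 RPKM, Cavin2 from 49.3 ± 1.19 to 71.9 ± 0.533 RPKM and Cav1 from 444 ± 21.7 to 514 ± 22.05 RPKM, and Pacsin3 fell from 10.4 ± 0.660 to 8.27 ± 0.424 RPKM.

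Antioxidant genes rose more often than they fell (15 and 7 of 36). The microsomal glutathione transferase gene Mgst1 went from 155, 159.7 and 169 RPKM to 324, 289 and 313 RPKM (log2 change 0.93 ± 0.0497 SE, adjusted p = 7.9e-08). Catalase (Cat) rose from 114 ± 4.66 to 171 ± 2.50 RPKM, Gpx1 from 117 ± 3.96 to 184 ± 10.3 RPKM, and Nqo1, a standard target of the factor NRF2, from 9.64 ± 0.156 to 17.5 ± 1.42 RPKM. In iron handling, the transferrin receptor gene Tfrc went from 7.26, 7.61 and 7.85 RPKM to 16.7, 15.4 and 15.4 RPKM (log2 change 0.97 ± 0.0409 SE, adjusted p = 2.6e-08) and the ferric reductase gene Steap4 from 2.999, 3.001 and 2.90 RPKM to 6.64, 6.13 and 5.89 RPKM. The transporter genes Slc39a14 and Slc11a2 fell from 12.7 ± 0.725 to 7.86 ± 0.303 RPKM and from 15.4 ± 0.285 to 12.2 ± 0.310 RPKM, as did Ncoa4, the receptor for breakdown of ferritin (from 23.9 ± 1.07 to 16.5 ± 0.580 RPKM).

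Lysosomal genes fell in 24 of 54 cases and rose in 4 (9 up and 19 down with median-ratio scaling, 7 up and 22 down without knockdown replicate 2). Their median log2 change was -0.055, near the -0.042 of all tested genes. The hydrolase genes Man2b1 and Neu1 fell from 20.8 ± 0.801 to 12.9 ± 0.591 and from 13.2 ± 0.490 to 9.36 ± 0.766 RPKM. Of the stress pathways of the endoplasmic reticulum and of amino acid supply, targets of ATF4 were divided (9 up and 10 down of 31). Among those that rose were 3 genes of serine and cysteine metabolism, Cth from 15.7 ± 0.232 to 27.1 ± 0.575 RPKM, Phgdh from 23.6 ± 0.883 to 36.2 ± 1.81 RPKM and Shmt2 from 30.1 ± 0.904 to 40.2 ± 1.68 RPKM. The stress genes Ddit3 (CHOP) and Chac1 fell from 121 ± 3.13 to 77.5 ± 4.45 RPKM and from 70.1 ± 1.62 to 48.3 ± 3.46 RPKM, and Cebpb from 181 ± 2.95 to 132 ± 7.82 RPKM.

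Immune genes showed single large changes and no common direction (3 up and 5 down of 12 interferon-response genes, 4 and 4 of 13 for antigen presentation). The guanylate-binding protein gene Gbp2 rose from 1.72, 2.01 and 1.95 RPKM to 5.01, 4.54 and 5.44 RPKM (log2 change 1.05 ± 0.0655 SE, adjusted p = 2.7e-07), while the interferon regulator Irf7 fell from 3.59, 3.81 and 3.64 RPKM to 1.497, 1.56 and 1.53 RPKM (log2 change -0.89 ± 0.0408 SE, adjusted p = 3.3e-08). H2-T23, a nonclassical histocompatibility gene, fell from 4.05 ± 0.336 to 1.80 ± 0.308 RPKM, and haptoglobin (Hp), an acute-phase product of fat, from 370.0 ± 4.99 to 265 ± 18.7 RPKM. Among immediate early genes, Myc rose from 25.99 ± 0.576 to 35.7 ± 1.25 RPKM and Ier3 fell from 13.9 ± 0.436 to 9.004 ± 1.61 RPKM.

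Fatty acid oxidation genes rose in 11 of 27 cases and fell in 3 (7 up after rescaling to TPM). Cpt1a, which admits fatty acids to mitochondria, went from 1.69, 1.82 and 1.67 RPKM to 3.30, 3.18 and 3.30 RPKM (log2 change 0.64 ± 0.0459 SE, adjusted p = 7.2e-07), and Acadm rose from 118 ± 2.83 to 156 ± 5.14 RPKM. Of the nuclear-encoded respiratory chain 4 of 80 rose and 15 fell, below the shares of all tested genes in both directions, and its rises numbered 1 to 12 over the alternatives, 9 without knockdown replicate 2 and 1 without any other library except scrambled replicate 3. Its clearest member was Cox7a1, an isoform of muscle and brown fat, at 34.6, 33.3 and 32.2 RPKM and 19.5, 17.5 and 19.98 RPKM (log2 change -0.78 ± 0.0692 SE, adjusted p = 3.7e-06). With Cidea, the potassium channel gene Kcnk3 (from 38.3 ± 1.14 to 24.2 ± 0.596 RPKM) and Ppargc1b (from 5.61 ± 0.118 to 3.84 ± 0.351 RPKM), it belonged to 6 falls among 13 thermogenic fat genes, of which 3 rose (1 after rescaling to TPM). Ucp1 did not pass the filter on level. Of the 13 messages of the mitochondrial genome 3 rose (0 with no filter on low values, 1 with quantile normalization, 5 without scrambled replicate 1, and 1 without scrambled replicate 2 or knockdown replicate 1), mt-Nd1 the most (6088, 5037 and 6479 RPKM and 10464, 9404 and 8804 RPKM, adjusted p = 4.5e-04, or 0.098 with no filter on low values), while mt-Co1, the most abundant message of all, was at 16347, 14422 and 16307 RPKM and 18076, 17279.5 and 16388 RPKM (adjusted p = 0.25).

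**Figure D4:**
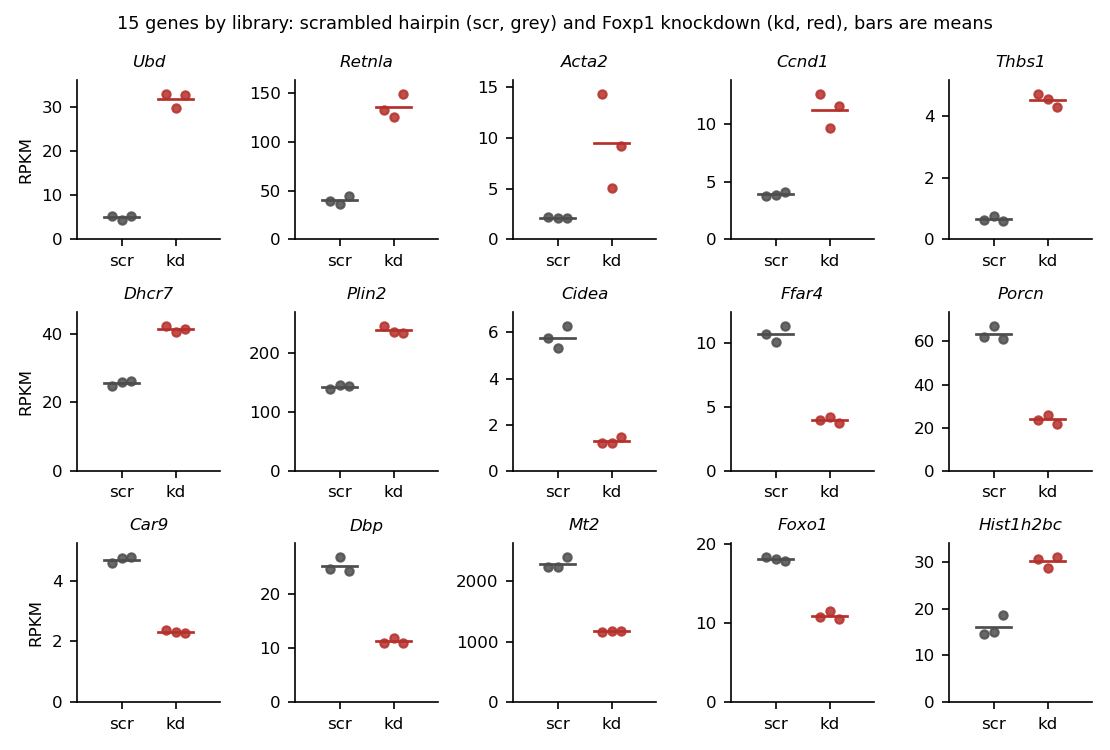
RPKM of 15 genes in each of the 6 libraries, on linear axes from 0, with grey dots for the scrambled hairpin (scr), red dots for the knockdown (kd) and bars at the group means (3 libraries each). No gene shown overlaps between the groups, but many were chosen for that, and it held in 59.6% of all tested genes. Acta2 is the most uneven within the knockdown.

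In the overexpression experiment, which has its own control and shares no library with the knockdown, each gene's response could be set against the one above, and the difference of both responses was tested in the same model. Foxp1 stood at 5.78, 7.16 and 6.75 RPKM there. Overexpression changed 5775 genes (51.4%). The responses differed in 6173 genes (54.9% of those tested, adjusted p of the difference under 0.05). Of the 2100 genes that rose in knockdown, 675 (32.1%) fell in overexpression and 531 (25.3%) rose there too. Of the 3487 that fell, 1360 (39.002%) rose in overexpression and 651 (18.7%) fell there too. In the other direction, of the 2285 genes that fell in overexpression, 29.5% rose in knockdown, against 18.7% of all tested genes, and 28.5% fell, against 31.0%. Of the 3490 that rose in overexpression, 38.97% fell in knockdown, against 31.0%, and 15.2% rose, against 18.7%. Opposite calls were thus above the shares of all tested genes and like calls somewhat below them, yet 1182 genes moved the same way in both experiments. The shares of 18.7% and 31.0% themselves depend on the scaling, as given above.

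Ubd showed the widest contrast, 33.1 ± 0.791 RPKM with the empty vector and 1.31 ± 0.157 RPKM in overexpression, against 5.01 ± 0.550 RPKM with the scrambled hairpin and 31.8 ± 1.68 RPKM in knockdown (difference of log2 responses 6.34 ± 0.0966 SE, adjusted p = 1.0e-12). Cidea rose in overexpression from 2.34, 3.78 and 2.85 RPKM to 12.3, 12.9 and 12.8 RPKM, opposite to its fall in knockdown (adjusted p of the difference = 3.0e-09). Foxo1 and Foxo6 also rose there, 10.8 to 22.2 RPKM and 1.93 to 3.04 RPKM as group means (adjusted p of the difference = 3.9e-10 and 1.9e-08). Mt2 went from 583 to 1279 RPKM and Cyp2e1 from 26.9 to 4.27 RPKM, each opposite to the knockdown. Other genes fell or rose in both. Cyb561 fell in overexpression from 29.2 to 13.5 RPKM. Depp1 fell there from 5.64 to 2.85 RPKM (log2 change -0.78), although Foxo1 and Foxo6 rose, and by less than in knockdown (adjusted p of the difference = 1.4e-05). The responses of Gchfr were not shown to differ (adjusted p = 0.8, difference -0.03 ± 0.0805 SE), nor were those of Selenbp1 (adjusted p = 0.62), which fell in both experiments. Dbp fell in overexpression too, 24.1 to 18.8 RPKM, by less than in knockdown (adjusted p of the difference = 2.5e-06). The histone gene Hist1h2bc was at 51.3 ± 1.85 RPKM with the empty vector and 52.4 ± 1.11 RPKM in overexpression, and the difference of its responses passed (adjusted p = 2.2e-05).

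**Figure D5:**
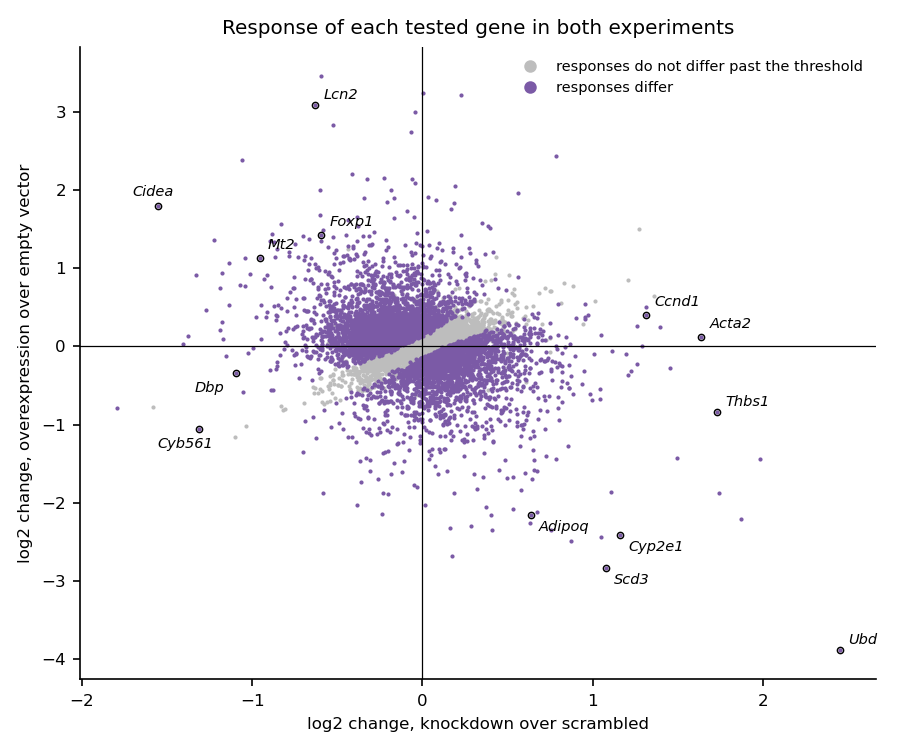
Log2 change in overexpression over empty vector (vertical) against log2 change in knockdown over scrambled hairpin (horizontal) for the 11245 tested genes, in purple where the responses differ past adjusted p 0.05. Ubd, Cidea and Lcn2 lie far out in the quadrants of opposite change, and Cyb561 and Dbp lie below 0 on both axes.

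The control groups differed from each other in 8070 genes (71.8%), more than separated the knockdown from its own control. The contrast of the controls shares the scrambled libraries with the knockdown contrast, so their values are given side by side only. For the genes with the largest changes, the empty vector level often lay on the knockdown side of the scrambled level. Ubd was at 34.03, 32.8 and 32.6 RPKM with the empty vector, close to its level in knockdown. Apod stood at 111, 98.4 and 112 RPKM, Orm2 at 128, 127 and 126 RPKM and Acta2 at 35.2, 30.2 and 34.4 RPKM with the empty vector, above both hairpin groups, and Thbs1 at 19.4, 17.1 and 18.2 RPKM likewise. Car9 was at 0.172, 0.260 and 0.123 RPKM and Ndrg1 at 0.743, 0.781 and 0.723 RPKM with the empty vector, below both. Foxo1 was at 10.95, 10.7 and 10.7 RPKM there, near its knockdown level, and Retnla at 16.5, 16.7 and 16.3 RPKM, below the scrambled level from which it rose. Foxp1 itself was at 1.83, 1.76 and 1.82 RPKM with the empty vector. What sets the controls apart was not tested, and the hairpin and empty vector constructs cannot be told apart from whatever else differed between these cultures.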

How the data were processed

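RNA of 3T3-L1 adipocytes was measured in 12 libraries (4 groups of 3). The authors deposited RPKM per gene and library, divided by 1000, per the file's values: value times exon length comes out whole, within 0.05 of a read, for at least 98.8% of values. They were multiplied by 1000 here, and reads were recovered from them for depth and for an alternative test. Per the submitters' processing notes, HISAT2 2.1.0 and featureCounts of Subread 1.5.3 were used on mm10, with no settings given in the sources used here. Symbols, positions and exon lengths came from GENCODE M21 (28896 of 28948 identifiers matched), promoters from RefSeq (GRCm38.p6).

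Genes of at least 1 RPKM in at least 3 of 12 libraries (11245) entered limma 3.58.1 (R 4.3.3; eBayes with a trend) on the log2(RPKM + 1) scale, in a single 4-group model, with Benjamini-Hochberg adjusted p under 0.05 over all of them as the threshold. In simulated data, 8 of 50 genes changed 1.2-fold, 43 of 49 changed 1.5-fold and 50 of 50 changed 2-fold were called in the knockdown comparison, with 13 of 10627 unchanged genes (10823 genes run). The simulation gave every gene the same chosen spread and changed few genes, whereas 49.7% of tested genes were called in the data. Its rates check the code and do not measure recovery or false calls in this comparison.

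The genes, the 57 gene lists and the comparison were chosen with earlier results of these data known. Named genes were the forkhead genes, up to 6 members per list with the smallest adjusted p and up to 2 called against its direction, the 15 largest rises and falls at 5 RPKM or more and the 10 largest at 1 to 5 RPKM without overlap, and the 10 most abundant. Not all of these are printed. Members that did not pass, and some further members of a pathway or of the other control, were named after their values were seen, as were the clock promoters. Same-numbered replicates did not vary together. Alternatives were another pseudocount, no filter, 4 scalings, only the 6 libraries, a replicate block, voom and leaving out each library.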

Additional observations from a re-analysis of the deposited data

How the results depend on the processing

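All 15 alternatives kept the number of genes called in knockdown, in each direction, within 1.5 times of 2100 up and 3487 down, as they did the count of genes whose responses differ between knockdown and overexpression (not run with only the 6 libraries) and the count that differs between the controls. Leaving out each library in turn gave 4758 to 5350 calls, 1724 to 2019 up and 2972 to 3331 down. Of 205 called genes named in the text besides Foxp1, 201 kept their call and direction under every alternative. Foxp1 was lower under all of them. The call of Scd1 was lost with a log2 change of -0.10 under quantile normalization, and with no filter (adjusted p = 0.0501); the cause was not tested. Of 114 counts per list and direction, 26 moved by over 1.5 times in some alternative.

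With the replicate number as a block, 2143 genes rose and 3566 fell. The labels' numbers did not pair the libraries: deviations of same-numbered libraries correlated at -0.07, 0.05 and -0.06, so the block says nothing firm. With no filter, 2292 rose and 3493 fell of 28948 genes. Low genes are limited by depth: a single read per kilobase of exon equals 0.0262 to 0.0267 RPKM in these 6 libraries.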

Other observations

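Further groups of genes showed single changes. Of the cytochrome P450 genes 13 of 21 rose and 6 fell. Cyp1b1, which oxidizes steroids and xenobiotics, rose from 42.2 ± 2.69 to 56.4 ± 1.11 RPKM, and Cyp2f2 from 66.4 ± 2.28 to 83.2 ± 4.43 RPKM. Cyp39a1 and Cyp46a1, hydroxylases of oxysterols and of cholesterol, fell from 3.59 ± 0.276 to 1.93 ± 0.0935 RPKM and from 3.35 ± 0.136 to 2.11 ± 0.261 RPKM. Of the carbonic anhydrases, besides Car9 and Car12, Car11 fell from 8.56 ± 0.175 to 5.15 ± 0.590 RPKM and Car6 from 4.28 ± 0.643 to 2.89 ± 0.127 RPKM, while Car13 rose from 19.6 ± 1.11 to 26.3 ± 0.310 RPKM and the fat cell isoform Car3 from 1.77, 1.79 and 2.21 RPKM to 3.36, 3.66 and 3.68 RPKM. In the IGF axis 5 of 13 rose and 3 fell. Igfbp4, a secreted inhibitor of IGF action, fell from 257 ± 3.04 to 185 ± 3.02 RPKM, and Pappa, the protease that cleaves it, rose from 0.653 ± 0.0230 to 1.23 ± 0.0568 RPKM. The imprinted RNA H19 fell from 4.72, 4.14 and 5.31 RPKM to 2.54, 2.05 and 2.63 RPKM (log2 change -0.75 ± 0.12 SE, adjusted p = 2.5e-04, limma), whereas Dlk1, an imprinted marker of preadipocytes, was at 44.2, 46.7 and 52.9 RPKM and 51.05, 40.9 and 51.1 RPKM (adjusted p = 0.94).

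In Wnt signalling, beside the fall of Porcn, the receptor gene Fzd4 fell from 11.7 ± 0.504 to 8.74 ± 0.0955 RPKM, Tcf7l2 from 6.84 ± 0.490 to 4.26 ± 0.243 RPKM and Wnt4 from 3.71 ± 0.110 to 2.63 ± 0.297 RPKM, with 5 up and 5 down of 16 (over the alternatives 2 to 7 up, 2 without scrambled replicate 3, 3 without scrambled replicate 1 or knockdown replicate 1). In insulin signalling 3 of 28 rose and 10 fell (over the alternatives 2 to 8 up). Irs1 rose from 3.90 ± 0.0751 to 5.18 ± 0.112 RPKM, and Tbc1d4, which controls glucose transporter traffic, fell from 13.6 ± 0.316 to 9.86 ± 0.633 RPKM. Breakdown of branched-chain amino acids showed 4 up and 10 down of 22 (over the alternatives 2 to 6 up), with Ppm1k, the phosphatase that activates the pathway, falling from 3.19 ± 0.129 to 2.20 ± 0.313 RPKM. In glucose and lactate handling 3 of 19 rose and 8 fell, and of immediate early factors 6 of 17 rose and 4 fell.

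The other lists are given as counts. In the citric acid cycle 0 of 25 rose and 7 fell (over the alternatives 0 to 4 up, 1 without knockdown replicate 2 and 3 to 7 down, 4 without scrambled replicate 1 or scrambled replicate 2). Of cytosolic ribosomal proteins 10 of 80 rose and 0 fell (over the alternatives 2 to 17 up, 3 without scrambled replicate 2, 4 without knockdown replicate 1, 6 without scrambled replicate 1 or knockdown replicate 3 and 0 to 1 down). Of the unfolded protein response 4 of 25 rose and 8 fell (over the alternatives 2 to 8 up), of p53 targets 5 of 18 rose and 2 fell (over the alternatives 0 to 3 down, 1 without scrambled replicate 2 or knockdown replicate 2), of inflammation genes 4 of 18 rose and 5 fell (over the alternatives 4 to 7 up) and of preadipocyte markers 4 of 12 rose and 3 fell. Of lipid droplet genes 5 of 12 rose and 4 fell, of TGF-beta and BMP genes 6 of 26 rose and 8 fell (over the alternatives 5 to 11 up), of the pentose phosphate pathway 3 of 10 rose and 2 fell and of iron genes 4 of 17 rose and 5 fell. Of carbonic anhydrases 3 of 9 rose and 5 fell and of imprinted growth genes 3 of 9 rose and 1 fell (over the alternatives 2 to 5 up). Car12, as said above, passed the filter only through the scrambled libraries. Of the list of small nucleolar RNAs with their host genes 17 of 40 rose and 2 fell (over the alternatives 9 to 19 up, 10 without knockdown replicate 3). Of the tested markers of other cells 1 of 3 rose and 2 fell for skeletal muscle, 0 of 4 rose and 2 fell for bone and cartilage, and 0 of 2 rose and 1 fell (over the alternatives 0 to 1 down, 0 without scrambled replicate 2 or scrambled replicate 3 or knockdown replicate 1 or knockdown replicate 3) for macrophages. Of the nuclear RNAs used to judge RNA quality 1 of 3 rose and 0 fell.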
